A study of Mus musculus with 8 samples.

Results

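Collagen chain genes were followed in inguinal fat, a subcutaneous depot, taken at 6 weeks of age from mice with an adipocyte deletion of Lsd1 and from controls. The members were all genes whose symbol has the form Col, number, a, number, and 42 of them had a row among 23360 genes measured. Col6a3 and Col12a1, which the RefSeq table also lists, were not analysed here. By known structure 11 members were fibrillar, 6 belonged to the type IV collagens of basement membrane, and 25 to other classes. There were 4 control libraries, from mice with floxed Lsd1 alleles, and 4 knockout libraries, labelled Lsd1 KO, from floxed mice crossed to Adipoq-Cre. All groups therefore carried the floxed alleles, and no group carried Adipoq-Cre without them. The Adipoq promoter is active in adipocytes, so the fibroblasts, vessel cells and other cells of the pad keep the gene. Neither the sex of the mice nor whether each library is 1 mouse is stated, so p-values reflect only how these libraries scatter, which could be technical variation.

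Collagens are secreted proteins whose alpha chains wind into a triple helix, and a trimer can hold identical or different chains. Fibrillar collagens such as types I, III and V assemble into the tensile fibres between cells. Type IV collagen forms the sheet-like network of basement membranes, which surrounds each adipocyte and lines vessels, and type VI collagen forms beaded filaments that link cells to the fibres. In fat, fibroblast-like stromal cells make most of the fibrillar chains, adipocytes and vessel cells contribute basement membrane chains, and collagen accumulates when the tissue becomes fibrotic.

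The libraries held 25671837 to 32442724 recovered reads, and a value below is a scaled read count, the unit of the deposited files. Kdm1a, which encodes Lsd1, was at 699, 685, 799 and 735 in control replicates 1 to 4 and at 566, 578, 547 and 581 in knockout replicates 1 to 4, lower in all 4 knockouts (log2 fold change -0.36, SE 0.075, limma adjusted p = 0.0498). Leaving out any 1 library ended that call (log2 fold changes of -0.39 to -0.31). All 6 adipocyte markers, Adipoq and Plin1 among them, were present, and they summed to 227250 to 296457 in controls and 178087 to 213508 in knockouts. Fabp4, at a mean of 150241 in controls and 114626 in knockouts, was the largest part of these sums. Of the 6, the lipid droplet gene Cidec fell (log2 fold change -1.01, limma adjusted p = 0.00179) and the other 5 did not pass. Among those 5 Retn had a positive fold change (0.11). Markers of other cells differed between libraries. Skeletal muscle fibre markers summed to 93815 to 160372 in knockout replicates 1, 2 and 4 and to 6683 to 30784 in the other libraries. The keratin genes Krt5 and Krt14, which mark basal epithelium, were at 237 and 137 in knockout replicate 1 and at 82.2 and 39.7 in knockout replicate 2, and at 0.98 or below elsewhere. All 10 fibroblast and progenitor markers had a positive fold change and none passed the threshold, with sums of 148545 to 210187 in controls and 186115 to 231196 in knockouts. In bulk tissue fewer cells of a type and less RNA per cell cannot be told apart.

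No collagen chain passed the test between knockout and control fat. Of the 42 members 34 reached 10 scaled reads in 4 or more libraries and were tested, and 0 of the 34 reached a limma adjusted p under 0.05, where 1.64% of all 14591 tested genes did. At an unadjusted p under 0.05 there were 5 of 34 chains (14.7%), beside 14.5% of all genes. The groups did not overlap for 3 chains (8.82%), beside 8.65% of all genes. All 3 were higher in knockouts, beside 5.06% of all genes, and 0 chains were lower without overlap, beside 3.58%. These shares lie near those of all genes. Col26a1, counted among the 5 and among the 3, passed the filter through the knockouts, so its direction is tied to how it entered the tested set. The log2 fold changes, taken as knockout over control on a log2(value + 1) scale, understate the change of low genes. They ran from -0.36 to 0.97 with a median of 0.093, beside 0.023 for all genes, and 24 of 34 (70.6%) were positive, beside 54.6%. With the muscle marker level as a covariate 17 of 34 were positive and the median was 0.0051. Muscle markers were highest in knockout replicates 1, 2 and 4. This covariate therefore overlaps with genotype, here and below, and its fits cannot fully tell them apart. Leaving out single libraries moved the median between 0.043 (without control replicate 1) and 0.19 (without knockout replicate 3). DESeq2 on recovered reads called 3 chains as higher, Col6a5, Col6a1 and Col17a1, and 5.32% of all genes. The edgeR quasi-likelihood test on the same reads called 0 chains and 1.49% of all genes, with 5 chains at an unadjusted p under 0.05.

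**Figure D1:**
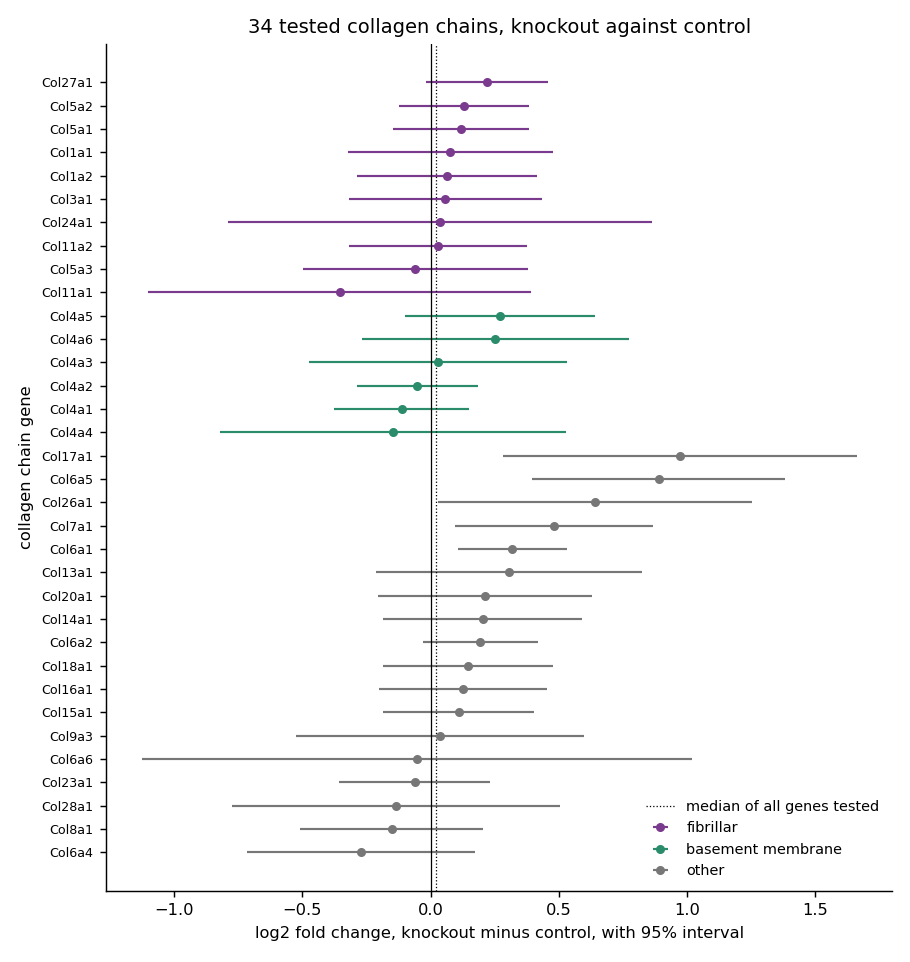
Log2 fold change (x axis, knockout minus control, with 95% intervals from limma) of the 34 tested collagen chains (y axis), n = 4 libraries per group, coloured by class, with the median of all genes tested as a dotted line. The intervals of 5 chains, all in the class of other collagens, lie above 0, and none of the 34 chains passed after adjustment over all genes.

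The pad's collagen transcripts were dominated by a few fibrillar chains. Counted per kilobase of transcript, so that genes can be compared, Col3a1 was highest at 13269 scaled reads per kb in controls and 13769 in knockouts. Col1a2 followed at 7595 and 7990 per kb and Col1a1 at 6687 and 7143 per kb. Next came Col4a1 at 2970 and 2732 per kb, Col6a1 at 2243 and 2789 per kb, and Col6a2 at 2017 and 2296 per kb, so that Col4a1 and Col6a1 exchanged the ranks 4 and 5 between genotypes. The top 3 and the chains at ranks 6 to 16 stood in the same order in both genotypes. The cartilage chain Col2a1 was at 0.388 and 0.408 per kb, at rank 41 of 42 in both. The 8 members below the filter (Col2a1, Col8a2, Col9a1, Col9a2, Col10a1, Col19a1, Col22a1 and Col25a1) had values of 0 to 21.8 scaled reads in single libraries and were not tested.

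**Figure D2:**
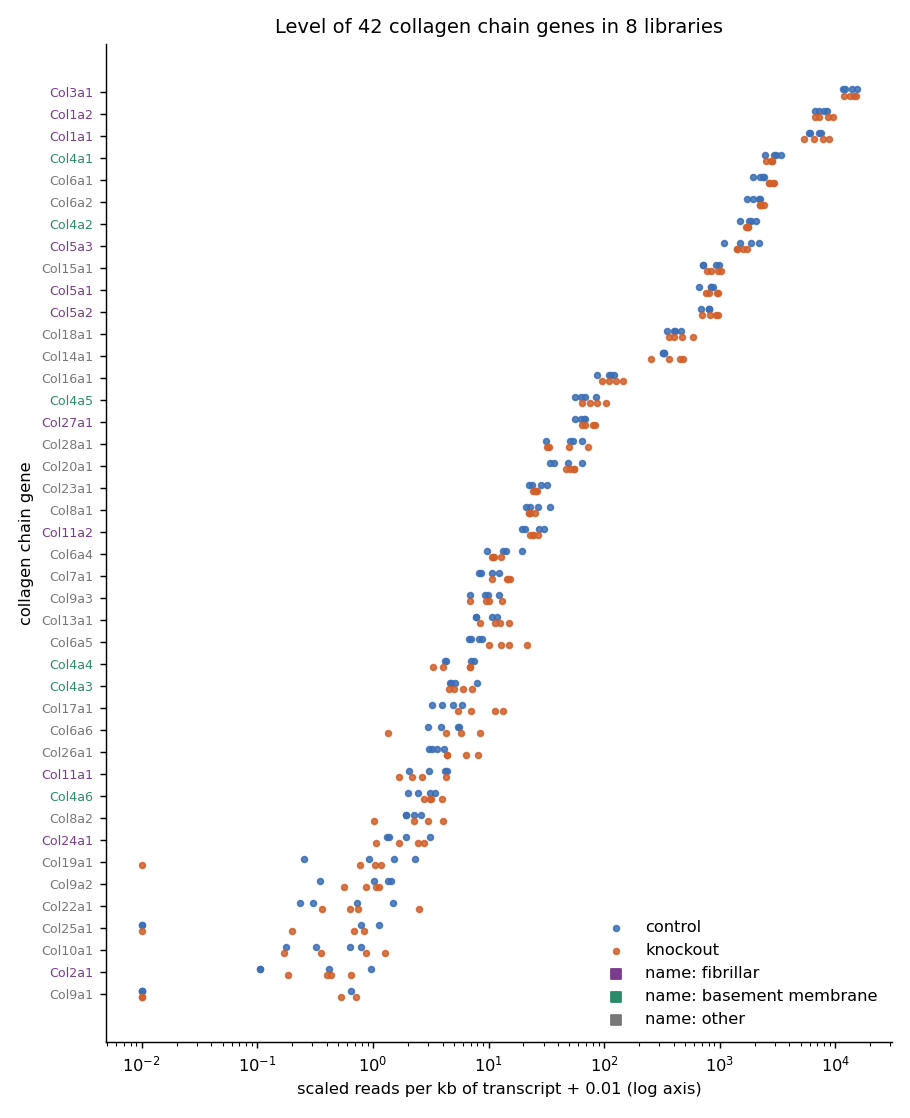
Scaled reads per kb of transcript plus 0.01 (x axis, log scale) of the 42 collagen chain genes (y axis, ordered by control mean), with 1 point per library. Levels span from 13269 per kb for Col3a1 to 0.160 per kb for Col9a1 in controls, and the points of both genotypes lie close together for the abundant chains.

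All collagen chains together made up 1.44, 1.80, 1.59 and 1.79% of the library total in the controls, in replicate order, and 1.85, 1.67, 1.49 and 1.96% in the knockouts. The means were 1.65% ± 0.173 in controls and 1.74% ± 0.206 in knockouts (SD, n = 4 each), and the groups overlapped. Fibrillar chains held 75.0% of the collagen reads in controls and 74.9% in knockouts, and Col1a1, Col1a2 and Col3a1 alone held 65.4 and 65.5%. Basement membrane chains held 13.5% of collagen reads in controls and 12.2% in knockouts. The other classes held 11.5 and 12.9%, and their share of the library total was 0.165 to 0.207% in controls and 0.208 to 0.236% in knockouts, ranges that just fail to meet. All type VI chains measured fall in that class.

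**Figure D3:**
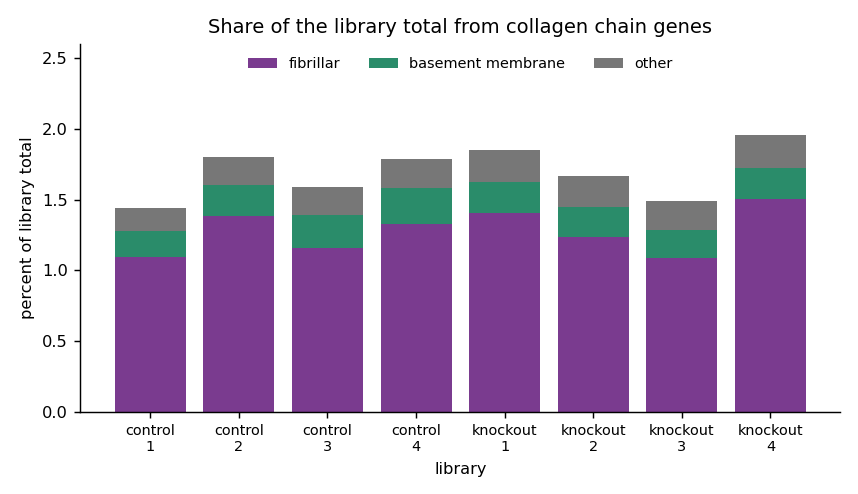
Percent of the library total (y axis) from collagen chain genes in each of the 8 libraries (x axis), stacked by fibrillar, basement membrane and other classes. The totals run from 1.44% in control replicate 1 to 1.96% in knockout replicate 4, and fibrillar chains make up the largest part of every bar.

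No fibrillar chain passed the test between the genotypes. Of 10 tested members 8 had a positive fold change and 0 passed, with a median log2 fold change of 0.060. This median was -0.031 with the muscle covariate, -0.0055 without knockout replicate 4 and 0.16 without knockout replicate 3. Col1a1, the alpha 1 chain of type I collagen, was at 36117, 44422, 35390 and 42682 in control replicates 1 to 4 and at 46093, 38890, 31804 and 52656 in knockout replicates 1 to 4. The highest and the lowest of the 8 values were both in knockouts, and the log2 fold change was 0.077 (95% interval -0.32 to 0.48, limma adjusted p = 0.883). Col1a2, its partner chain, was at 38717, 45311, 36030 and 42414 in controls and at 46559, 38314, 35333 and 50719 in knockouts (0.063, interval -0.29 to 0.41, adjusted p = 0.894). It followed Col1a1 library by library, with knockout replicate 4 highest and knockout replicate 3 lowest. Col3a1, which forms the type III homotrimer of fine fibres, was at 64526, 85200, 67785 and 77803 in controls and at 80490, 74526, 66627 and 84810 in knockouts (0.056, interval -0.32 to 0.43, adjusted p = 0.913). For these 3 chains the intervals leave room for a rise of up to 0.48 or a fall of up to 0.32 on the log2 scale. With the muscle marker level as a covariate Col1a1, Col1a2 and Col3a1 had negative values of -0.084, -0.040 and -0.022, and without knockout replicate 4 Col1a1 and Col1a2 were at -0.036 and -0.024.

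The promoter windows of Col1a2 and Col3a1, which encode partners in the same fibres and had the 2 highest levels per kb, are shown as RefSeq gives them in GRCm38.p6, with 250 bases before and 50 after the start, 5′ to 3′ on the strand of the gene. Capitals mark the CCAAT box (CCAAT), the GC box (GGGCGG) and the TATA-like motif TATAAA, each searched on both strands and none contained in another. The Col1a2 window is chr6:4505368-4505667 on the plus strand and the Col3a1 window chr1:45311288-45311587 on the plus strand.
Col1a2: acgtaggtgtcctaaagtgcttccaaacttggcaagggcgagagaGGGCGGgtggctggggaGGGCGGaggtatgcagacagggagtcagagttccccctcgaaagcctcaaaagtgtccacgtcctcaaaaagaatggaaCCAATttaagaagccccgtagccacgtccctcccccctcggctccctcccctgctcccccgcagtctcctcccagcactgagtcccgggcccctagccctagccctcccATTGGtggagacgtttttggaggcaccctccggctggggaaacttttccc
Col3a1: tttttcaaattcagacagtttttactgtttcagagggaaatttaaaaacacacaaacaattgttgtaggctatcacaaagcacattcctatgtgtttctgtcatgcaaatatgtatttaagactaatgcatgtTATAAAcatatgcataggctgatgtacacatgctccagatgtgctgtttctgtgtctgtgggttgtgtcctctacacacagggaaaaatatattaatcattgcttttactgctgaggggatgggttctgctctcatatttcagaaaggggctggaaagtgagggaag
The Col1a2 window held 2 CCAAT boxes, at -109 and, on the opposite strand, at 1, and 2 GC boxes, at -205 and -188, where the position is that of the motif's first base on the printed strand and 1 is the start. The Col3a1 window held TATAAA at -117 and neither of the other motifs, and 37.7% of its bases were G or C, against 61.0% for Col1a2. Of all 32851 RefSeq windows of this length, 37.4% held CCAAT, 35.7% GGGCGG and 13.6% TATAAA. Of 37 windows for 34 of the members, 13 held CCAAT, 23 GGGCGG and 5 TATAAA.

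Type V collagen, which is built into type I fibres and limits their width, was measured by 3 chains. Col5a1 was at 5576, 6999, 7001 and 7349 in controls and at 8019, 6732, 6373 and 8082 in knockouts (log2 fold change 0.12, interval -0.15 to 0.38, limma adjusted p = 0.699). Col5a2 was at 4590, 5358, 5300 and 5307 in controls and at 6177, 5415, 4625 and 6411 in knockouts (0.13, interval -0.12 to 0.38, adjusted p = 0.648). For both, knockout replicates 1 and 4 lay above every control and knockout replicate 3 lay among the controls, and for Col5a2 knockout replicate 2 also lay above them. Col5a1 shares 99 and 113 exon bases with 2 genes on the opposite strand. Col5a3, the third chain, lay between 6602 (control replicate 1) and 13432 (control replicate 4) in controls and between 8627 and 10583 in knockouts (-0.060, SE 0.20). Its spread among controls was the widest of the abundant fibrillar chains, 0.44 (SD of log2 values), where that of Col5a2 was 0.11. Col27a1, a fibrillar chain of cartilage and developing tissue, had the smallest p of the class, with 480, 426, 520 and 506 in controls and 634, 520, 493 and 610 in knockouts (0.22, interval -0.019 to 0.46, adjusted p = 0.391). Col11a1 had the most negative fold change of all tested chains at a low level, 15.7 to 33.4 in controls and 12.8 to 32.7 in knockouts (-0.36, interval -1.10 to 0.39, adjusted p = 0.676), and its sign was positive in 2 alternatives, with the B cell score as a covariate and without the controls numbered 517 and 518.

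Basement membrane chains had no shared direction, with 3 of 6 positive, 0 called and a median log2 fold change of -0.012. That median ran from -0.088 without control replicate 1 to 0.091 without knockout replicate 3. Col4a1, one of the chains of the network found in every basement membrane, was at 16346, 19599, 20390 and 22242 in controls and at 18661, 18395, 16507 and 18722 in knockouts (-0.11, interval -0.38 to 0.15, limma adjusted p = 0.709). Col4a2, its partner, was at 9703, 11519, 11916 and 13300 in controls and at 10816, 11305, 11027 and 11334 in knockouts (-0.053, interval -0.29 to 0.18, adjusted p = 0.859). In both, the controls spread more widely than the knockouts and enclosed them. Endothelial markers, 6 of 6 with a negative fold change and 0 past the threshold, summed to 13026 to 15204 in controls and 11111 to 13444 in knockouts. Mural cell markers, also 6 of 6 negative with 0 past the threshold, summed to 7303 to 9000 in controls and 6320 to 7176 in knockouts. The part of either cell type in the type IV values was not tested.

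Col4a1 and Col4a2 lie head to head on chromosome 8. The starts given in the RefSeq table are 21 bases apart, so their promoter windows share 78 bases. The Col4a1 start used, 11312826, lies inside the gene as annotated, whose 5′ end is at 11312889. The distance and the shared stretch hold for the starts used. Both windows are shown because the levels of the 2 chains varied together across libraries, as their ratio shows. Whether the shared stretch has a part in this was not tested. The Col4a1 window is chr8:11312777-11313076 on the minus strand, the Col4a2 window is chr8:11312555-11312854 on the plus strand, and capitals mark the same motifs.
Col4a1: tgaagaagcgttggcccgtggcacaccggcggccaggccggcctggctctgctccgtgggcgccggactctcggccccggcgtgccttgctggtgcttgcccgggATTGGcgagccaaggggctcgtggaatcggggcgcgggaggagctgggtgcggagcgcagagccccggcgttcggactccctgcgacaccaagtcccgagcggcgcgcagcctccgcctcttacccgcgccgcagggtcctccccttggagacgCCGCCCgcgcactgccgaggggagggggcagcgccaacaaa
Col4a2: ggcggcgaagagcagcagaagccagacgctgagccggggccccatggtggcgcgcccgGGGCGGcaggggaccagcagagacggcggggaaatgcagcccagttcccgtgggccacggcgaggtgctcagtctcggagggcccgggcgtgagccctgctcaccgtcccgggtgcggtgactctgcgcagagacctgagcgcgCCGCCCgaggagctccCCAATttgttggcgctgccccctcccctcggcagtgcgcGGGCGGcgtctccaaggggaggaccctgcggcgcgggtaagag
The Col4a2 window held a CCAAT box at -32 and the Col4a1 window one at -145 on the opposite strand. GC boxes stood at -192, -48 (opposite strand) and 8 of the Col4a2 window and at 10 (opposite strand) of the Col4a1 window, where the last of the Col4a2 boxes and that of Col4a1 are the same bases in the shared stretch. G or C made up 74.0% of the Col4a1 window and 73.7% of the Col4a2 window. The annotated exons of the 2 genes overlap over 22 bases, and reads there cannot be told apart unless strand is used.

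The minor type IV chains were far lower. Col4a5, on the X chromosome, was at 354, 536, 394 and 430 in controls and 650, 473, 404 and 550 in knockouts (log2 fold change 0.27, interval -0.10 to 0.64, limma adjusted p = 0.503). Its neighbour Col4a6 was at 13.4 to 22.6 in controls and 18.5 to 26.2 in knockouts. Col4a3 and Col4a4, which with Col4a5 form the network of the kidney's filter, were at 39.8 to 68.6 and 41.97 to 75.7 in controls and at 38.5 to 61.5 and 33.2 to 69.3 in knockouts. Col4a4 had one of the 4 most negative fold changes (-0.15, interval -0.82 to 0.53, adjusted p = 0.866), and it turned positive without knockout replicate 3. Col4a3 shares 563 exon bases with C430014B12Rik on the opposite strand, so its reads are uncertain.

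Type VI collagen held the chains with the smallest p. Col6a5, a chain that can take the place of alpha 3 in the trimer, was at 76.6, 62.9, 81.3 and 65.5 in control replicates 1 to 4 and at 202, 119, 92.9 and 139 in knockout replicates 1 to 4. All 4 knockouts lay above every control, knockout replicate 1 highest and knockout replicate 3 nearest to the controls (71.6 ± 8.79 and 138 ± 46.5, SD, n = 4; log2 fold change 0.89, SE 0.22, limma adjusted p = 0.0970). It passed without knockout replicate 3 (1.06, adjusted p = 0.0232), where 2.96% of all genes passed, and with DESeq2 (0.92, adjusted p = 0.00372), and its adjusted p ran up to 0.411 over the 23 alternatives. Without the knockouts numbered 361 and 360, which are knockout replicates 1 and 2 with the keratin signal, it was 0.67 (adjusted p = 0.283). The muscle markers, too, were highest in knockout replicates 1, 2 and 4. With the muscle marker level as a covariate Col6a5 was at 0.55 (adjusted p = 0.245) and with the epithelial one at 0.70 (adjusted p = 0.270).

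Its promoter window, chr9:105960594-105960893 on the minus strand, is printed because the gene had the smallest p of all members, and it follows the start given in the RefSeq table, 105960643. This start lies inside the gene as annotated, whose 5′ end is at 105962463.
Col6a5: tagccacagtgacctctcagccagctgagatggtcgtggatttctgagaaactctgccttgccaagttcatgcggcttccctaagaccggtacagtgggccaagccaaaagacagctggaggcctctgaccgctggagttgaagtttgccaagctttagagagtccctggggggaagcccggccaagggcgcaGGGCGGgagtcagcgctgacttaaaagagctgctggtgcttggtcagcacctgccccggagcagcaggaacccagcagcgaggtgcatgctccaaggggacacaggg
It held 1 GC box, at -57, and no CCAAT or TATAAA.

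Col6a1, the alpha 1 chain of the main type VI trimer, was at 7966, 9718, 9164 and 9934 in controls and at 11790, 10986, 10983 and 11979 in knockouts. Every knockout lay above every control (9195 ± 881 and 11434 ± 525, SD, n = 4; log2 fold change 0.32, SE 0.095, limma adjusted p = 0.157), and DESeq2 passed it (0.29, adjusted p = 0.0344). Over the alternatives its log2 fold change was 0.25 to 0.36. Col6a2, the alpha 2 chain, was at 6754, 8787, 7679 and 8639 in controls and at 8739, 8887, 9014 and 9623 in knockouts (0.19, interval -0.031 to 0.42, adjusted p = 0.425). Only control replicate 2 reached the range of the knockouts, and it lay above knockout replicate 1. Col6a4 was at 71.3 to 145 in controls and 79.6 to 94.4 in knockouts (-0.27, interval -0.72 to 0.17, adjusted p = 0.578), and Col6a6 at 11.8 to 22.0 and 5.31 to 33.3. Col6a4 shares exon bases with 2 opposite-strand genes, over 162 and 127 bases.

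Neither Col17a1 nor Col7a1 passed the test, and for each 3 of 4 knockouts lay above every control. Col17a1, a transmembrane collagen of the hemidesmosome, was at 17.6, 21.6, 32.3 and 26.8 in controls and at 73.1, 62.6, 38.5 and 30.0 in knockouts. Knockout replicates 1 and 2, the libraries with Krt5 and Krt14, were highest, and knockout replicate 4 lay within the controls (log2 fold change 0.97, SE 0.31, limma adjusted p = 0.185). Without those 2 libraries the log2 fold change was 0.48 (adjusted p = 0.529), and DESeq2 on all libraries gave 1.03 (adjusted p = 0.0436). Col7a1, which forms the anchoring fibrils below basement membranes of skin, was at 78.6, 113, 76.4 and 98.0 in controls and at 136, 134, 98.6 and 142 in knockouts (0.48, SE 0.17, adjusted p = 0.240). For Col7a1 knockout replicate 4, with no Krt5 or Krt14 read, was highest. Without the 2 keratin-positive libraries its log2 fold change was 0.39 (adjusted p = 0.510). Of the 8 epithelial markers only 2 passed the filter on low values and 0 passed the test, and the 8 summed to 76.1 to 115 in controls and 88.9 to 528 in knockouts. With their level as a covariate Col17a1 was at 0.52 (adjusted p = 0.397) and Col7a1 at 0.43 (adjusted p = 0.421). The part of epithelial cells in the values of either gene was not tested.

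**Figure D4:**
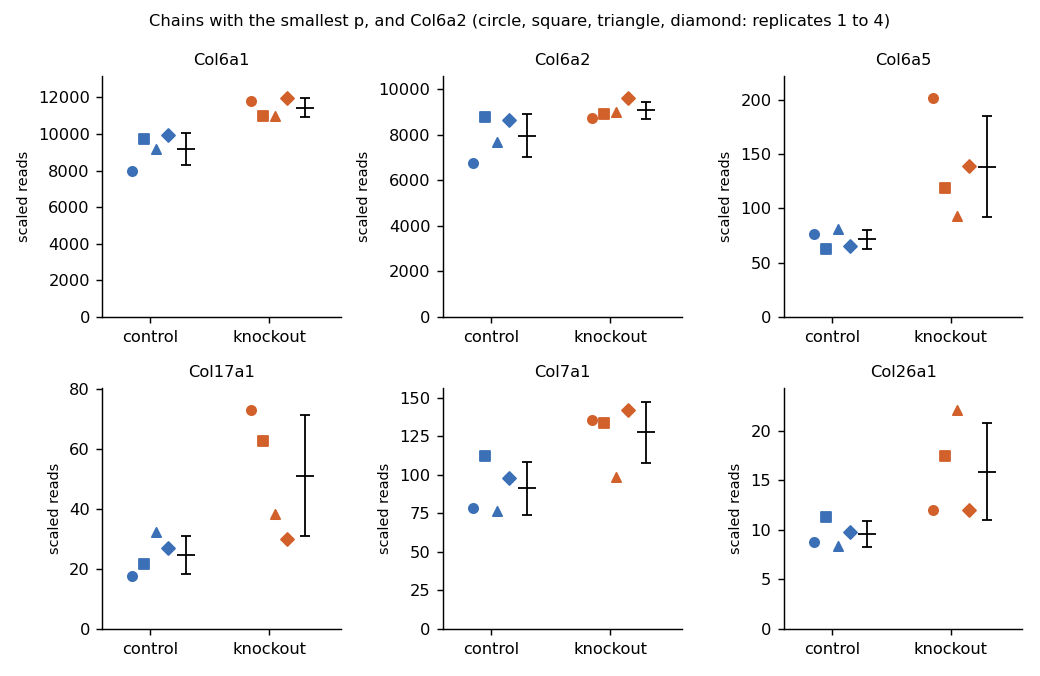
Scaled reads (y axis, from 0) in each library of 5 chains with the smallest p and of Col6a2, with mean and SD beside the points and a marker shape per replicate number. Col6a1, Col6a5 and Col26a1 show no overlap between groups, while Col17a1 is highest in knockout replicates 1 and 2, at 73.1 and 62.6.

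Among the remaining classes, Col26a1 was the only other chain without overlap, at 8.79, 11.3, 8.32 and 9.80 in controls and 12, 17.4, 22.1 and 11.98 in knockouts (log2 fold change 0.64, interval 0.030 to 1.25, limma adjusted p = 0.321). Its values sit at the filter's limit of 10, so it passed the filter through the knockouts. Col15a1 and Col18a1, the multiplexins of basement membrane zones whose C-terminal fragments include endostatin, were both slightly positive. Col15a1 was at 3739, 3717, 4826 and 5062 in controls and 4340, 5256, 5019 and 4018 in knockouts (0.11, interval -0.19 to 0.40, adjusted p = 0.750), and its sign was negative with the B cell covariate and without the controls numbered 517 and 518, whose values were the 2 lowest of the 8. Col18a1 was at 1780, 2040, 2057 and 2350 in controls and 2379, 2022, 1830 and 2986 in knockouts (0.15, interval -0.19 to 0.48, adjusted p = 0.703), with 0.013 without knockout replicate 4 and 0.25 without knockout replicate 3. Col8a1, a short-chain network collagen of vessels, was at 175, 116, 138 and 107 in controls and 128, 114, 115 and 117 in knockouts (-0.15, interval -0.51 to 0.20, adjusted p = 0.711).

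The fibril-associated collagens, which decorate the surface of fibres, had 4 tested members, all with a positive fold change between 0.035 and 0.21 and 0 called. Col14a1, the most abundant of them, was at 1883, 1821, 1879 and 1853 in controls and at 2721, 2088, 1436 and 2572 in knockouts (log2 fold change 0.20, interval -0.18 to 0.59, limma adjusted p = 0.641). The controls lay within 1821 and 1883 while the knockouts ran from below to above them, with SDs of 28.8 and 579. Knockout replicates 1 and 4 were high and knockout replicate 3 low, the order also seen for Col1a1, Col5a2 and Col18a1. Pdgfra, 1 of the 10 fibroblast and progenitor markers, ran in the same way. It was at 2335, 1689, 1478 and 2438 in knockout replicates 1 to 4 and at 1748 to 2022 in controls. Pi16, Dpp4, Cd34, Gsn and Mfap5 also had knockout replicates 1 and 4 highest and knockout replicate 3 lowest among the knockouts. For Cd34 and Gsn knockout replicates 2 and 3 were nearly equal. Cd55 was lowest in knockout replicate 3 too, with knockout replicates 1 and 2 highest. Dpt, Ly6a and Clec3b ran otherwise. Dpt was lowest in knockout replicate 1, at 11278, beside 11630 in knockout replicate 3. Among the knockouts Ly6a and Clec3b were lowest in replicate 2. The part of these markers in the collagen values was not tested. Over the 34 tested chains knockout replicate 3 was the lowest knockout for 22 and knockout replicate 4 the highest for 15, and control replicate 1 was the lowest control for 16.

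For Col1a1/Col1a2, Col4a1/Col4a2, Col5a1/Col5a2 and Col6a1/Col6a2, abundant pairs that share a trimer, the ratio varied less than each chain alone. The log2 ratio of 2 chains in the same library does not depend on how that library was scaled. Col1a1 to Col1a2 had a pooled SD of 0.072 within groups, where the chains alone had 0.25 and 0.20. For Col4a1 to Col4a2 it was 0.062, beside 0.15 and 0.14 for the single chains, for Col5a1 to Col5a2 0.072, beside 0.18 and 0.17, and for Col6a1 to Col6a2 0.058, beside 0.11 and 0.13. This was not particular to shared trimers. Col3a1 to Col1a1, of different trimers, had 0.12, beside 0.17 and 0.25 for the single chains, and Col4a1 to Col6a1 0.072, beside 0.15 and 0.11. Nor did it hold for Col5a3, the third type V chain. Col5a1 to Col5a3 had 0.30, beside 0.18 and 0.33 for the single chains. Col5a2 to Col5a3 had 0.36, beside 0.17 and 0.33. The pairs of low chains were loose too, with 0.29 for Col4a5 to Col4a6 and 0.60 for Col4a3 to Col4a4. Per kb, Col1a1 stood at 0.880 of Col1a2 in controls and 0.894 in knockouts, while the type I trimer holds more alpha 1 than alpha 2 chains. Col4a1 stood at 1.65 and 1.58 times Col4a2 per kb.

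Of 7 ratios compared between genotypes, 1 did not overlap between groups. Col6a1 to Col6a2 was 0.24, 0.15, 0.25 and 0.20 on the log2 scale in controls and 0.43, 0.31, 0.29 and 0.32 in knockouts. The difference of 0.12 had an exact two-sided permutation p of 0.0286, the smallest that 4 against 4 allows, and a Benjamini-Hochberg adjusted p of 0.200 over the 7 ratios. The other 6 had differences from -0.060 (Col4a1 to Col4a2) to 0.18 (Col4a3 to Col4a4), with exact permutation p of 0.200 or above and overlapping groups. For Col1a1 to Col1a2 the difference was 0.014 and for Col5a1 to Col5a2 -0.013.

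**Figure D5:**
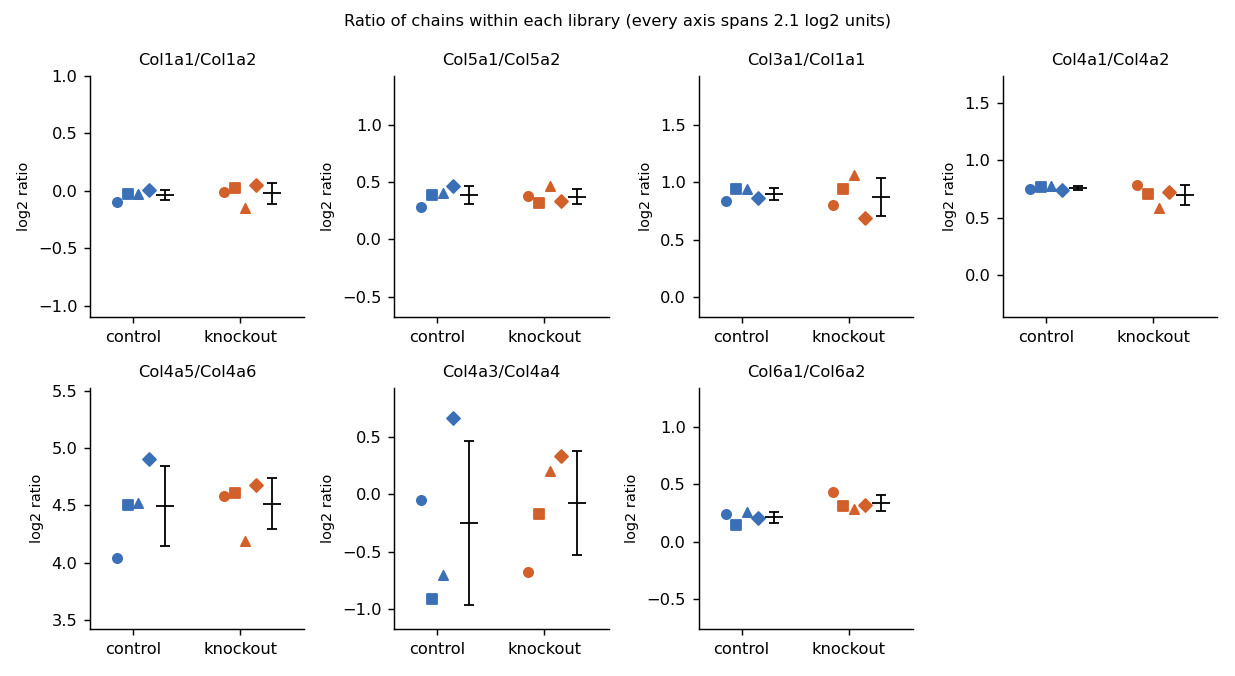
Log2 ratio of 2 collagen chains within each library (y axis, every panel spanning the same range) in controls and knockouts, with mean and SD. Col1a1/Col1a2, Col4a1/Col4a2, Col5a1/Col5a2 and Col6a1/Col6a2 vary little, with a pooled SD of 0.058 to 0.072, and Col6a1/Col6a2 is the pair whose groups do not overlap.

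The enzymes and partners of collagen were read from 6 lists with 79 tested genes, of which 3 passed as higher, 0 passed as lower, and 50 had a positive fold change (median log2 fold change 0.083). The threshold was passed as higher by 1.28% of all genes. P3h4, which belongs to the prolyl 3-hydroxylase family and takes part in lysine hydroxylation of collagen in the endoplasmic reticulum, was at 206, 258, 221 and 254 in controls and at 416, 366, 372 and 431 in knockouts. No knockout came near the controls (log2 fold change 0.76, SE 0.11, limma adjusted p = 0.00784), and the call held in all 22 alternatives listed beforehand and was lost without the knockouts numbered 361 and 360 (0.78, adjusted p = 0.0759). Of the 21 tested modification and folding genes P3h4 was the only call. Fkbp14, a folding enzyme of procollagen, did not pass at 296 ± 24.1 and 392 ± 50.2 (0.40, adjusted p = 0.123), without overlap between the groups, and it shares 208 exon bases with Plekha8 on the opposite strand.

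Of 13 tested breakdown genes 2 passed as higher. Fap, a serine protease of activated fibroblasts that trims collagen fragments, was at 398, 364, 418 and 387 in controls and at 556, 551, 513 and 556 in knockouts (log2 fold change 0.47, SE 0.077, limma adjusted p = 0.0171). Timp4, an inhibitor of matrix metalloproteinases, was at 1071, 1454, 1336 and 1576 in controls and at 1929, 2347, 2562 and 2609 in knockouts (0.80, SE 0.13, adjusted p = 0.0187). Both were higher in 4 of 4 knockouts than in any control. The call of Fap was lost without control replicate 4 (adjusted p = 0.0594), knockout replicate 2 (0.0812) or knockout replicate 4 (0.0829), and that of Timp4 without knockout replicate 2 (0.0778) or 4 (0.0829). With a marker level as a covariate Fap did not pass for muscle (adjusted p = 0.0721), epithelium (0.0696) or B cells (0.0623), and Timp4 did not pass for B cells (0.0768). Without control replicates 1 and 2 together neither passed (adjusted p = 0.135 and 0.107), and Fap did not pass without the knockouts numbered 361 and 360 (adjusted p = 0.163). Timp4 shares 90 exon bases with Syn2 on the opposite strand.

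None of the other 4 lists held a call. Among 13 cleavage and crosslinking genes Loxl1, a lysyl oxidase that crosslinks elastin and collagen, was at 2354 ± 219 and 2911 ± 211 (log2 fold change 0.31, limma adjusted p = 0.1499), and Pcolce2, an enhancer of procollagen cleavage, at 1444 ± 92.5 and 1767 ± 246 (0.28, adjusted p = 0.250). Among 11 fibril-binding proteins Prelp, a leucine-rich repeat protein, was at 4168 ± 932 and 5816 ± 565 (0.51, adjusted p = 0.178) and Bgn, the proteoglycan biglycan, at 3849 ± 240 and 4596 ± 377 (0.25, adjusted p = 0.200). These 4 genes had groups without overlap (SD, n = 4 each). Over the 6 lists 11 of 79 genes (13.9%) had such groups, 10 higher and 1 lower in knockouts, beside 8.65% of all genes. The remaining ones, named after their values were seen, were Tmem38b (0.33, limma adjusted p = 0.187), Mrc2 (0.40, adjusted p = 0.103) and, lower, Mia2 (-0.19, adjusted p = 0.210). Of 7 collagen receptors 3 had a positive fold change, and Itga11, an integrin subunit that binds fibrillar collagen, lay between 243 and 679 in controls and between 432 and 893 in knockouts (0.56, or 0.30 to 0.80 without single libraries, adjusted p = 0.463), and Lair1, an inhibitory receptor of immune cells, between 112 and 191 and between 166 and 197 (0.29, or 0.16 to 0.41, adjusted p = 0.503). Of 14 basement membrane partners 6 were positive, and Lama3, a laminin chain of epithelial basement membranes, was at 88.4 ± 28.6 and 120 ± 13.4 (0.50, or 0.23 to 0.64 without single libraries, adjusted p = 0.400). Prelp shares 350 exon bases with Gm15851 and Lama3 197 with Gm29200, both on the opposite strand. Tmem38b shares 119 with n-R5s185 on the same strand.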

How the data were processed

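RNA from 4 control and 4 knockout fat pads was sequenced, aligned to mm10 with TopHat version 2 and counted with HOMER, per the labels, the design text and the submitters' processing notes. No source used here gives the strandedness or annotation. The deposited signal values appear to be read counts multiplied by 1 factor per library, as inferred from their steps and stated by no source used here. Of all values 99.99 to 100% were whole multiples of 1 step (tolerance 0.02), which gave the recovered reads. Of 23373 rows, 22527 accessions matched RefSeq and 124 GENCODE, 721 matched neither, 1 was blank, and the highest row was kept per symbol. The 14591 genes that reached 10 in 4 or more libraries were tested with limma 3.58.1 (R 4.3.3) on log2(value + 1), with Benjamini-Hochberg adjustment and a threshold of 0.05. edgeR 4.0.16 and DESeq2 1.42.0 on recovered reads were alternatives, with other scalings, filters, pseudocounts, marker covariates and left-out libraries. Fits were tested on simulated data. Ratios had exact permutation tests over 70 assignments. The text names Kdm1a, 11 fixed main chains, the 6 chains with the smallest p, the 4 most positive and 4 most negative, and, per pathway list, every call and the 2 smallest p, of which 1 gene is not reported here. Other chains are given by their values. Members and lists were chosen with earlier results of these data known.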

Additional observations from a re-analysis of the deposited data

Results flagged for a closer look

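Single libraries stood apart from the other 3 of their group in 6 of 94 groups looked at, by Dixon's test of the gap over the range at 95%, which chance gives in about 1 in 20 groups. Col4a1 was lowest in knockout replicate 3 at 16507, with 18395 to 18722 in the other knockouts. Col7a1 was lowest in the same library at 98.6, with 134 to 142 in the others, and so was Fap at 513, with 551 to 556. Col4a3 was highest in control replicate 4 at 68.6, with 39.8 to 43.6 in the other controls. Col5a2 was lowest in control replicate 1 at 4590, with 5300 to 5358 in the others. Loxl1 was lowest in knockout replicate 2 at 2599, with 2976 to 3058 in the others.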

How the results depend on the processing

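No paired analysis was possible because the numbers in the sample titles are not shared between groups. No collagen chain was called in the other 21 alternatives, while DESeq2 called 3 as higher and leaving out single libraries called 0 to 1. The 3 pathway genes called higher became 1 with the B cell covariate, without the controls numbered 517 and 518 and without the knockouts numbered 361 and 360 (an alternative chosen after seeing the data), 5 with DESeq2 and 1 to 3 without single libraries; DESeq2 also called 2 as lower. Kdm1a no longer passed at -0.41 (B cell covariate), -0.36 (epithelium covariate, filter of 50, no filter, pseudocount of 0.5), -0.35 (library totals, limma-voom), -0.39 (muscle covariate), -0.43 (without 517 and 518), -0.37 (without 361 and 360) and -0.39 to -0.31 (without single libraries). With the muscle covariate the log2 fold changes of Col1a1 (-0.084), Col1a2 (-0.040), Col3a1 (-0.022) and Col5a2 (-0.013) turned negative. Col15a1 turned to -0.052 with the B cell covariate and -0.094 without 517 and 518, and Col11a1 to 0.00083 and 0.020. Without single libraries Col1a1 ran from -0.036 to 0.21, Col1a2 from -0.024 to 0.15, Col3a1 from -0.0055 to 0.13, Col4a2 from -0.14 to 0.015 and Col4a4 from -0.30 to 0.050. Differences in log2 ratio turned without 517 and 518 for Col1a1/Col1a2 (-0.014), Col4a5/Col4a6 (-0.20) and Col4a3/Col4a4 (-0.056), and without 361 and 360 for Col1a1/Col1a2 (-0.012), Col5a1/Col5a2 (0.014) and Col4a5/Col4a6 (-0.061). Without single libraries they ran from -0.012 to 0.057 (Col1a1/Col1a2), -0.047 to 0.016 (Col5a1/Col5a2), -0.085 to 0.041 (Col3a1/Col1a1), -0.13 to 0.15 (Col4a5/Col4a6) and -0.045 to 0.48 (Col4a3/Col4a4). The cause of these changes was not tested.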

Other observations

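The 13 chains with a mean of at least 1000 scaled reads form 78 pairs. Of these, 4 pairs that share a trimer were among the least variable within groups. By pooled SD of the log2 ratio Col6a1/Col6a2 ranked 1 (0.058), Col4a1/Col4a2 ranked 2 (0.062), Col1a1/Col1a2 ranked 4 (0.072) and Col5a1/Col5a2 ranked 5 (0.072), beside a median of 0.18 over all pairs. Col4a1/Col6a1, which form different trimers, ranked 3 (0.072). The pairs of Col5a3 with the other type V chains were looser, with Col5a1/Col5a3 at rank 65 (0.30) and Col5a2/Col5a3 at rank 71 (0.36). This is a description of 8 libraries, and pairs that share a chain are not independent.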
